A study of Homo sapiens with 30 samples.

Results

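The 44 genes described here encode factors that start and carry out DNA replication, together with E2F transcription factors and their targets at the step from G1 to S phase. They were chosen by gene symbol from replication factors and E2F targets, leaving out the genes of the MCM helicase. Each of the 44 symbols matched 1 of the 60554 gene identifiers in the count files, and all 44 were among the 15081 genes that passed the filter on low counts. RNA was measured in 5 established human lines grown from T-cell leukaemias of the acute lymphoblastic type (T-ALL), a cancer of immature T cells. The lines were TALL-1, PEER, Loucy, MOLT-16 and PER-117. In each, cells given 1 µM decitabine for 48 h were compared with cells given the solvent DMSO (dimethyl sulfoxide) alone. Each line and treatment had 3 libraries, 30 in all, and the labels do not say whether the 3 were separate cultures. The p-values therefore measure the spread between libraries of a group, which may be technical. That spread was estimated over all 30 libraries together, so a call in a line also depends on libraries of the other lines. Decitabine is a deoxycytidine analogue that is built into DNA during replication and traps DNA methyltransferases there. The labels name no other agent, allele or clone for any group.

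Replication begins when the origin recognition complex, with CDC6 and CDT1, loads the MCM helicase onto DNA in G1. CDC45 and the GINS complex then join the helicase and start it, primase and polymerase alpha lay down primers, and polymerases delta and epsilon extend them with the sliding clamp PCNA, which the RFC loaders place on DNA. Many of these genes are transcribed in late G1, when cyclin-dependent kinases with cyclin D or cyclin E release E2F factors from the retinoblastoma protein, so their RNA is high in proliferating cells.

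The kit used here (QuantSeq 3′ FWD) sequences the 3′ ends of polyadenylated RNA, and a level in CPM is the count of a gene divided by the TMM-adjusted total of its library, on one scale for all libraries. A library held 2.20 M to 15.4 M reads on the strand of a gene, and 7249 to 79669 of these fell on the 44 genes. No 2 libraries of a group agreed within sampling noise. In 3 DMSO libraries, genes restricted to another line were present. The median level of PEER genes was 16% of that in PEER in TALL-1 DMSO replicate 3 and 21.8% in MOLT-16 DMSO replicate 3, and MOLT-16 genes stood at 6.19% of their own level in PEER DMSO replicate 2. The other 12 DMSO libraries reached at most 1.37%. Cells given decitabine were not examined for such mixing, so the 3 were found among DMSO libraries alone. Results are given with these 3 mixed libraries, and counts also without them where they moved by over 1.5 times. All 10 T-cell markers passed the filter, with summed levels of 514 to 3141 CPM with decitabine and 713 to 4450.3 CPM with DMSO over all lines. CD2 and CD5 were near 0 in PER-117, at 0.547 and 0.142 CPM with decitabine and 0.216 and 0.251 CPM with DMSO. None of 4 erythroid markers passed the filter.

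The replication genes fell in TALL-1, and few were called in the other 4 lines. In TALL-1 37 of the 44 were lower with decitabine and 0 were higher, where 6.12% of all genes tested were called lower and 6.74% higher (edgeR quasi-likelihood test, adjusted p under 0.05). The log2 changes in TALL-1 ran from -1.72 to -0.27 with a median of -0.97, all 44 below 0, while the median of all genes tested was 0.00. Of the 44, 22 fell at least 2-fold, a count for which the share over all genes was not computed. For 41 all decitabine libraries lay below all DMSO libraries, where 14.1% of all genes did so. Without the 3 mixed libraries 39 of 44 were lower and 0 higher, at a median of -1.03, where 6.49% of all genes were lower and 7.46% higher, and the 39 included all 37. Over each of the 30 libraries left out in turn, 30 of the 37 calls were kept every time. In bulk RNA, a smaller share of cells in S phase and less of these transcripts in each cell cannot be told apart.

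**Figure D1:**
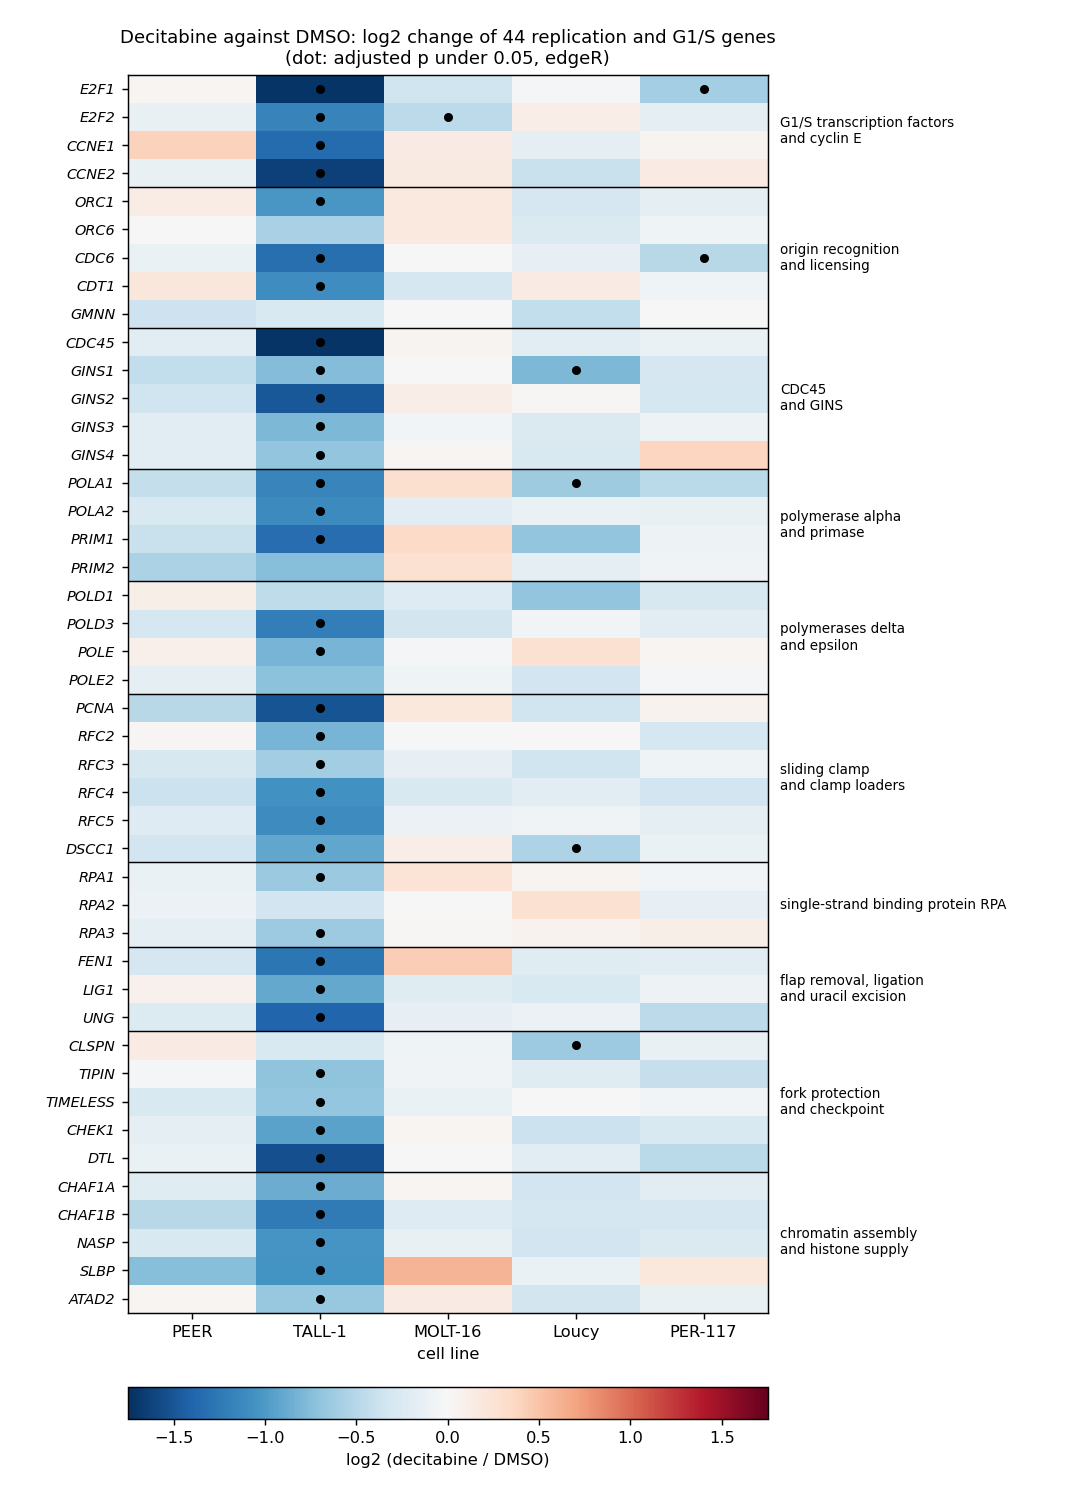
Log2 change with decitabine against DMSO for the 44 genes (rows, grouped by role) in the 5 lines (columns); blue is lower and red higher with decitabine, and a dot marks an adjusted p under 0.05. Dots fill the TALL-1 column, with 37 of 44, and are 0 in PEER, 1 in MOLT-16, 4 in Loucy and 2 in PER-117.

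The 44 genes lie on 18 chromosomes, and their promoter sequences were compared because E2F factors bind near the starts of many of them. Of the 44, 37 had a window of 250 bases before to 50 after an annotated start in the RefSeq promoter table (GRCh38.p14). The E2F motif, any of TTTCCCGC, TTTCGCGC, TTTGCCGC and TTTGGCGC on either strand, was found in 19 of the 37 windows (51.4%). All genes with a window held it in 3.99% of 27305 cases, and genes of mitosis in 3 of 44 (6.82%). The 44 genes were chosen partly as E2F targets, so a share above that of all genes was built into the choice. The genes with a window were not limited to those tested for RNA. Of 21 matches, 17 began within 100 bases before the start and 2 after it. CCAAT on either strand, the letters that the factor NF-Y binds, was found in 22 of 37 (59.5%), against 77.3% of the mitosis genes and 39.7% of all genes. TTTGAA, the cell cycle homology element of late cell cycle genes, was found in 1 of 37 (2.70%), against 72.7% of the mitosis genes and 18.2% of all. The windows held a median of 31 CG pairs, against 16 over all genes.

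Below are 120 bases up to the base before the start, shown for the 4 members with the largest TALL-1 changes that hold the E2F motif there, and for 2 members that hold none in any window. Capitals mark the E2F motif or its complement. They are E2F1 at chr20:33686386-33686505 (minus strand), DTL at chr1:212035628-212035747 (plus strand), PCNA at chr20:5126623-5126742 (minus strand), GINS2 at chr16:85688955-85689074 (minus strand), CDC45 at chr22:19479800-19479919 (plus strand) and CCNE1 at chr19:29811871-29811990 (plus strand).
E2F1: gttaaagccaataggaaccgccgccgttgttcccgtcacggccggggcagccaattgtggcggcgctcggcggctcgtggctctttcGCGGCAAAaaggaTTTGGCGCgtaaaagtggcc
DTL: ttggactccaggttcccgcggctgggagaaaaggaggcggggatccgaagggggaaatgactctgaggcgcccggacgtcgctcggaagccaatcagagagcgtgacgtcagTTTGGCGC
PCNA: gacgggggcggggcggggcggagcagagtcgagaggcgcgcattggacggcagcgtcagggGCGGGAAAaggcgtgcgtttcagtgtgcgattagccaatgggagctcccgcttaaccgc
GINS2: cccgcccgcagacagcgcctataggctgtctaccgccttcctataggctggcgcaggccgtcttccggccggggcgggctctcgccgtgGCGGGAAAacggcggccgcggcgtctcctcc
CDC45: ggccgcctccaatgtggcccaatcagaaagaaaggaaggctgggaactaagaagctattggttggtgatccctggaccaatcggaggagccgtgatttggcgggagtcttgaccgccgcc
CCNE1: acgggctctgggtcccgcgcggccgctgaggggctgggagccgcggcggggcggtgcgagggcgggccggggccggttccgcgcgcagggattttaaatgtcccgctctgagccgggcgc
E2F1 holds 2 matches on opposite strands and the other 3 hold 1 each. Members with and without the motif had similar medians in TALL-1: 16 of 19 with it were lower, at a median log2 change of -1.09, and 15 of 18 without it were lower, at a median of -1.02. A match is a description of the letters, not of a bound site. Only exact words were searched, so a member without a match may still hold an E2F site of other letters. The CDC45 sequence, for instance, holds tttggcgg, which differs from TTTGGCGC in its last letter. The split therefore cannot separate members with E2F sites from members without them.

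**Figure D2:**
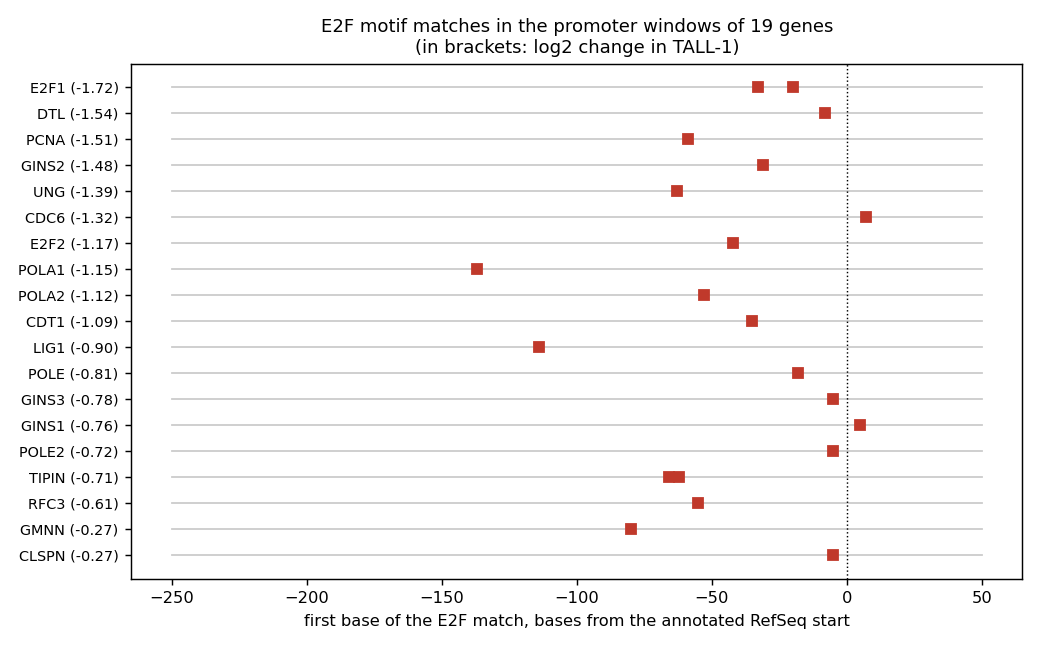
First base of each E2F motif match (squares) in bases from the annotated RefSeq start, for the 19 genes whose window holds it, ordered by their log2 change in TALL-1 (in brackets). Of the 21 matches 17 sit within 100 bases before the start, and changes from -1.72 to -0.27 occur among these genes.

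The G1/S transcription factors and cyclin E genes were the first group, and all 4 fell in TALL-1, at a median log2 change of -1.50. E2F1, an activator of S-phase genes (ENSG00000101412.12, chromosome 20, 33675683 to 33686404), had 50.4, 42.8 and 36.3 CPM in decitabine libraries of TALL-1, against 133, 190.1 and 108 CPM in DMSO libraries. The means were 43.2 ± 7.03 CPM with decitabine and 144 ± 42 CPM with DMSO (SD, n = 3 each). The groups did not overlap, and the fall of 1.72 on the log2 scale (SE 0.16, adjusted p = 8.22e-08) was the largest among the 44. E2F2, another activating E2F, had 106, 95.6 and 99.0 CPM with decitabine and 239, 227 and 212 CPM with DMSO, a log2 change of -1.17 (SE 0.12, adjusted p = 1.7e-07). CCNE1 encodes cyclin E1, the partner of CDK2 at S-phase entry. It had 11, 5.84 and 8.41 CPM with decitabine and 17.8, 25.3 and 20.1 CPM with DMSO, a log2 change of -1.35 (SE 0.21, adjusted p = 7.25e-05). CCNE2, for cyclin E2, had 4.14, 13.6 and 8.79 CPM with decitabine and 26.6, 22.6 and 36.3 CPM with DMSO, a log2 change of -1.64 (SE 0.34, adjusted p = 0.00144). In the plot of levels by library these 4 genes show the decitabine points of TALL-1 below its DMSO points without overlap.

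In the other lines 1 call fell on E2F1 and 1 on E2F2. E2F1 fell in PER-117, to 50.9, 54.6 and 53.4 CPM with decitabine, against 75.4, 83.7 and 79.5 CPM with DMSO, by 0.59 on the log2 scale (SE 0.16, adjusted p = 0.0115). E2F2 fell in MOLT-16, to 133, 106 and 141 CPM with decitabine, against 180.3, 181 and 162 CPM with DMSO, by 0.46 (SE 0.12, adjusted p = 0.0327). The E2F1 call in PER-117 was lost without its DAC (decitabine) replicate 1 (adjusted p = 0.0569) or DMSO replicate 2 (adjusted p = 0.0525), and the E2F2 call in MOLT-16 was lost without either of DAC replicates 1 and 2 or DMSO replicates 1 and 2. CCNE1 in PEER lay higher in all decitabine libraries, at 39.8, 42.5 and 36.8 CPM, than with DMSO, at 34.5, 29.6 and 26.2 CPM, and was not called (log2 0.40, SE 0.18, adjusted p = 0.226). The E2F1 change in TALL-1 exceeded the mean of the other 4 lines by -1.49 (SE 0.18, adjusted p = 6.65e-06), and those of E2F2, CCNE1 and CCNE2 by -1.01, -1.46 and -1.59.

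**Figure D3:**
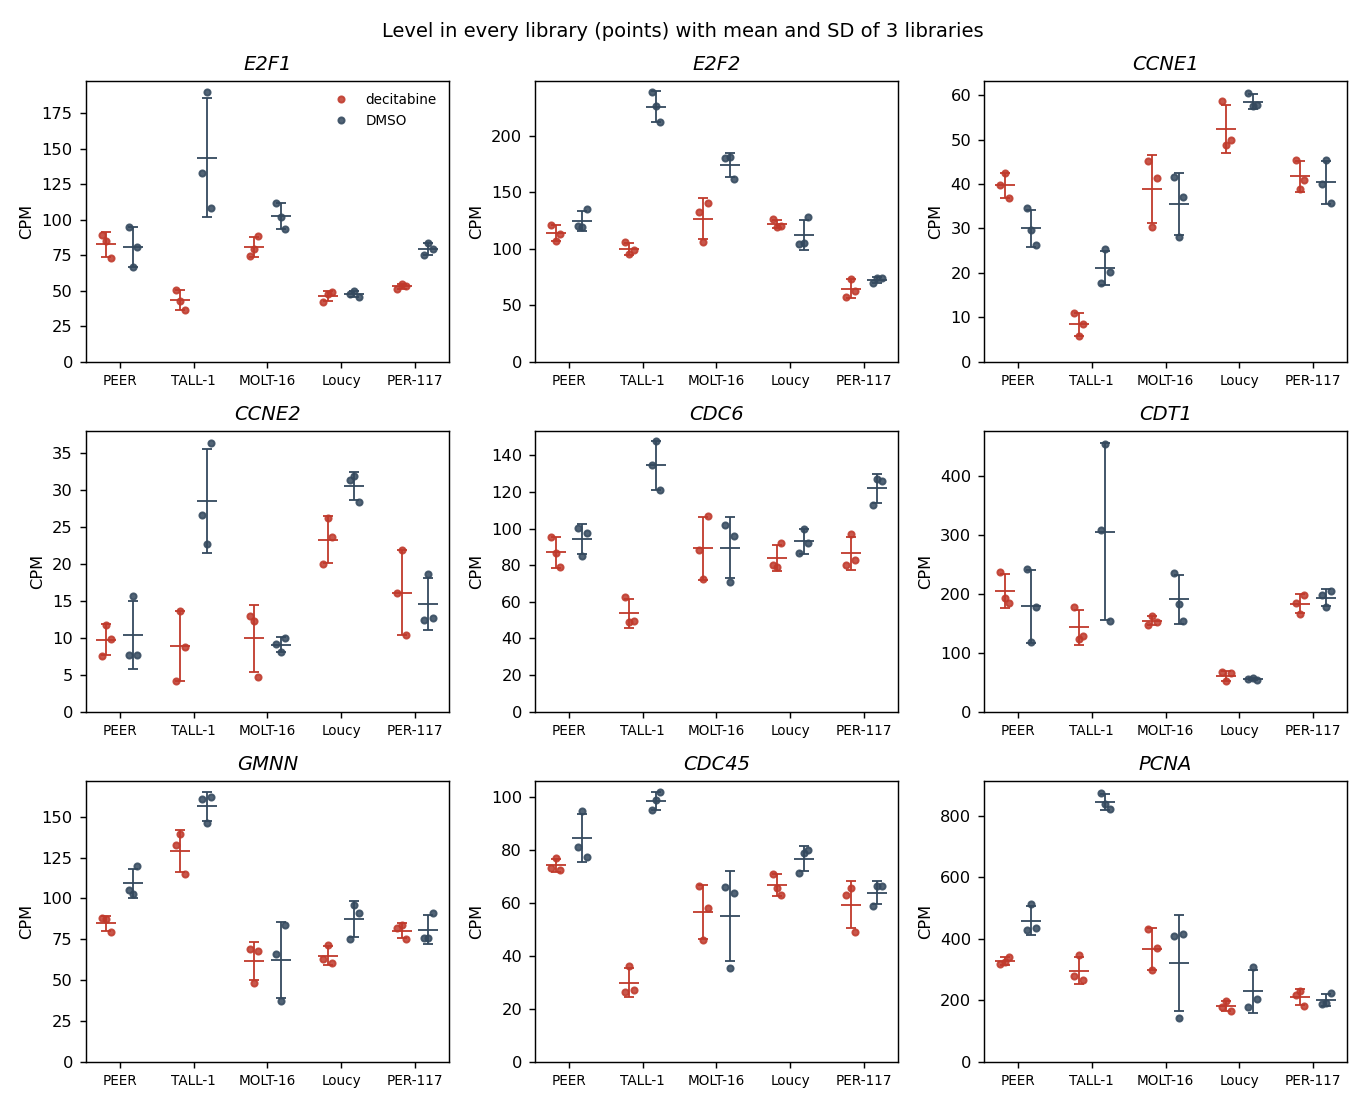
CPM of 9 genes in every library (points), with decitabine in red left of DMSO in dark blue for each line, and the mean with SD of the 3 libraries. In TALL-1 the points of E2F1, E2F2, CCNE1, CCNE2, CDC6, GMNN, CDC45 and PCNA do not overlap between treatments, and those of CDT1 do. GMNN was not called there.

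Of the 5 genes of origin recognition and licensing, 3 fell in TALL-1. CDC6, which loads the MCM helicase together with CDT1, had 62.8, 48.9 and 49.7 CPM with decitabine and 135, 148 and 121 CPM with DMSO, a log2 change of -1.32 (SE 0.15, adjusted p = 7.51e-07). CDT1 had 178, 123 and 129 CPM with decitabine and 308, 455 and 154 CPM with DMSO. Its groups overlapped, because the mixed DMSO replicate 3 lay below decitabine replicate 1. The log2 change of CDT1 was -1.09 (SE 0.25, adjusted p = 0.00394), -1.41 without the 3 mixed libraries, and -0.69 with adjusted p = 0.064 without DMSO replicate 2. ORC1, the largest subunit of the origin recognition complex, fell by 1.02 (SE 0.22, adjusted p = 0.00193). ORC6, another subunit of that complex, had 57.5, 73.0 and 67.3 CPM with decitabine and 91.2, 86.8 and 115 CPM with DMSO and was not called (log2 -0.57, SE 0.24, adjusted p = 0.121). GMNN encodes geminin, which blocks CDT1 after S phase has begun. It had 133, 139.6 and 115 CPM with decitabine and 161, 146 and 162 CPM with DMSO, without overlap, and was not called (log2 -0.27, SE 0.18, adjusted p = 0.347). TALL-1 minus the mean of the other lines was -1.08 (SE 0.28) for CDT1 and -0.07 (SE 0.20, adjusted p = 0.948) for GMNN. The CDT1 difference passed the test (adjusted p = 0.0167), except without TALL-1 DAC replicate 2 or 3 or DMSO replicate 2 (adjusted p = 0.0626 to 0.137).

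Outside TALL-1, CDC6 fell in PER-117, to 80.0, 96.9 and 82.7 CPM with decitabine, against 113, 127 and 126 CPM with DMSO, by 0.49 (SE 0.14, adjusted p = 0.0214). That call was lost without DAC replicate 1 or 3 or DMSO replicate 2 or 3, at adjusted p = 0.0667 to 0.111. GMNN in Loucy had 63.2, 71.4 and 60.5 CPM with decitabine and 74.9, 96.2 and 91.1 CPM with DMSO. Its groups did not overlap, and it was called lower there without the 3 mixed libraries (log2 -0.44, adjusted p = 0.0261) but not with them (-0.43, adjusted p = 0.0999).

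All 5 genes of CDC45 and the GINS complex, the parts that join the MCM ring to form the active helicase, fell in TALL-1. CDC45 (ENSG00000093009.9, chromosome 22, 19479459 to 19520612) had 26.4, 36.2 and 27.1 CPM with decitabine and 95.1, 99.1 and 102 CPM with DMSO. Its log2 change of -1.71 (SE 0.18, adjusted p = 1.76e-07) was close to that of E2F1. GINS2 fell by 1.48 (SE 0.16), while GINS1, GINS3 and GINS4 fell by 0.76, 0.78 and 0.69. The GINS4 call was lost without any of 4 TALL-1 libraries (DAC replicate 1 or 2, DMSO replicate 1 or 2), at adjusted p = 0.072 to 0.144. In Loucy GINS1 was the member with the largest fall: it had 61.0, 61.1 and 63.9 CPM with decitabine and 84.9, 93.9 and 142 CPM with DMSO, a log2 change of -0.79 (SE 0.16, adjusted p = 0.000735). GINS4 in PER-117 lay higher with decitabine, at 28.3, 30 and 25.4 CPM, than with DMSO, at 24.3, 21.5 and 19 CPM, and was not called (log2 0.37, SE 0.19, adjusted p = 0.225). The TALL-1 change minus the mean of the other lines was -1.35 for GINS2 (SE 0.18, adjusted p = 1.68e-05) and -0.38 for GINS1 (SE 0.18, adjusted p = 0.214), and these 2 genes were not tested against each other.

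Polymerase alpha and primase make the RNA-DNA primers, and 3 of their 4 genes fell in TALL-1. PRIM1, the catalytic primase subunit, had few reads, with 2.07, 7.48 and 6.12 CPM with decitabine and 16.7, 13 and 10.6 CPM with DMSO. Its log2 change of -1.33 (SE 0.38, adjusted p = 0.0193) was called, but not without DAC replicate 1 (-0.95, adjusted p = 0.128) or DMSO replicate 1 (-1.14, adjusted p = 0.083). POLA1 and POLA2, the catalytic and the B subunit of polymerase alpha, fell by 1.15 (SE 0.17) and 1.12 (SE 0.17). PRIM2, the large primase subunit, had 8.28, 11.2 and 7.65 CPM with decitabine and 17.2, 17.7 and 12.2 CPM with DMSO and was not called (log2 -0.75, SE 0.30, adjusted p = 0.1). Without the 3 mixed libraries it was called, at -0.90 (adjusted p = 0.035). POLA1 also fell in Loucy, to 27.7, 34.9 and 32.5 CPM with decitabine, against 58.8, 42.9 and 45.1 CPM with DMSO, by 0.62 (SE 0.16, adjusted p = 0.00705). That call was lost without DAC replicate 1 or DMSO replicate 1 of Loucy.

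Of the 4 genes of polymerases delta and epsilon, which copy the lagging and the leading strand, 2 fell in TALL-1. POLD3, an accessory subunit of polymerase delta, had 16.3, 23.8 and 27.1 CPM with decitabine and 42.7, 62.2 and 49.6 CPM with DMSO, a log2 change of -1.21 (SE 0.22, adjusted p = 0.000387). POLE, the catalytic subunit of polymerase epsilon, fell by 0.81 (SE 0.15, adjusted p = 0.000555). POLD1, the catalytic subunit of polymerase delta, had 14.0, 12.6 and 9.56 CPM with decitabine and 13.7, 27.1 and 10.0 CPM with DMSO. These groups overlapped, and POLD1 was not called (log2 -0.44, SE 0.29, adjusted p = 0.347), though it was without the 3 mixed libraries (-0.72, adjusted p = 0.0433). POLE2, the second subunit of polymerase epsilon, had 10.6, 15.7 and 13 CPM with decitabine and 18.7, 22.4 and 24.5 CPM with DMSO, without overlap, and was not called (log2 -0.72, SE 0.26, adjusted p = 0.0691).

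PCNA, the clamp that holds polymerases on DNA, and the 5 clamp loader genes all fell in TALL-1, at a median of -0.99. PCNA (ENSG00000132646.10, chromosome 20, 5114953 to 5126626) had 278, 346 and 266 CPM with decitabine and 875, 837 and 822 CPM with DMSO. The means were 297 ± 43.3 CPM with decitabine and 845 ± 27.1 CPM with DMSO (SD, n = 3 each). The groups did not overlap, and the log2 change was -1.51 (SE 0.24, adjusted p = 8.91e-05). RFC2, RFC3, RFC4 and RFC5, subunits of the loader, fell by 0.82, 0.61, 1.06 and 1.10, and the RFC3 call was lost without DAC replicate 1 (adjusted p = 0.0599). DSCC1, a subunit of the alternative loader that acts in sister chromatid cohesion, fell by 0.91 (SE 0.15). DSCC1 fell in Loucy too, to 89.5, 103 and 103 CPM with decitabine, against 150.1, 147 and 131 CPM with DMSO, by 0.54 (SE 0.14, adjusted p = 0.00755), a call lost without DAC replicate 1 (adjusted p = 0.0621). PCNA in PEER had 319, 324 and 342 CPM with decitabine and 429, 513 and 434 CPM with DMSO, without overlap and without a call (log2 -0.48, adjusted p = 0.281).

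The RPA trimer, which coats single-stranded DNA, had the smallest median change of the 10 role groups in TALL-1, at -0.63, with 2 of 3 genes lower. RPA1 had 167, 138 and 142 CPM with decitabine and 226, 239 and 235 CPM with DMSO, a log2 change of -0.65 (SE 0.13, adjusted p = 0.00101). RPA2 had 87.8, 85.9 and 79.9 CPM with decitabine and 95.5, 109.9 and 116 CPM with DMSO and was not called (log2 -0.34, SE 0.14, adjusted p = 0.104). RPA3 fell by 0.63 (SE 0.20, adjusted p = 0.0348), a call lost without any of 5 TALL-1 libraries, which were all but DAC replicate 2.

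Flap removal, ligation and uracil excision were represented by 3 genes, and all fell in TALL-1. UNG, the glycosylase that removes uracil from DNA, had 119, 114 and 81.0 CPM with decitabine and 261, 343 and 224 CPM with DMSO, a log2 change of -1.39 (SE 0.22, adjusted p = 6.69e-05). FEN1, the flap endonuclease of lagging-strand synthesis, fell by 1.27 (SE 0.24, adjusted p = 0.000613). LIG1, the ligase that seals the fragments, fell by 0.90 (SE 0.29, adjusted p = 0.0378), and its call was lost without any of 5 TALL-1 libraries (DMSO replicate 3 excepted), at adjusted p = 0.0679 to 0.165.

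Among genes of fork protection and the replication checkpoint, 4 of 5 fell in TALL-1. DTL, the receptor of a ubiquitin ligase that removes CDT1 when it meets PCNA on DNA, had 56.1, 49.1 and 37.5 CPM with decitabine and 123, 172 and 124 CPM with DMSO, a log2 change of -1.54 (SE 0.17, adjusted p = 4.42e-07). CHEK1, the checkpoint kinase of stalled forks, fell by 0.93 (SE 0.21), and TIMELESS and TIPIN, which travel with the fork as a pair, fell by 0.67 and 0.71. CLSPN encodes claspin, the adaptor that activates CHEK1. It had 59.1, 66.2 and 58.9 CPM with decitabine and 59.7, 79.0 and 83.4 CPM with DMSO in TALL-1, where the groups overlapped (log2 -0.27, SE 0.23, adjusted p = 0.502). In Loucy CLSPN was called lower, with 68.1, 118 and 105 CPM with decitabine and 139, 143 and 171 CPM with DMSO (log2 -0.64, SE 0.22, adjusted p = 0.05, just under the threshold before rounding). That call was lost without any of 5 Loucy libraries (DAC replicate 2 excepted) and without any of 10 libraries of other lines. DTL in PER-117 had 86.2, 87.6 and 86.7 CPM with decitabine and 120.1, 114 and 126 CPM with DMSO, without overlap (log2 -0.47, adjusted p = 0.0542), and was called without the 3 mixed libraries (adjusted p = 0.0168).

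All 5 genes of chromatin assembly and histone supply fell in TALL-1, at a median of -1.03. CHAF1B, a subunit of the CAF-1 chaperone that places histones behind the fork, had 68.3, 56.0 and 55.1 CPM with decitabine and 117, 168 and 141 CPM with DMSO, a log2 change of -1.24 (SE 0.20, adjusted p = 7.63e-05). CHAF1A, its larger partner, fell by 0.87 (SE 0.13). NASP, a histone H3-H4 chaperone, fell by 1.03 (SE 0.16), and ATAD2, an E2F-responsive chromatin ATPase, by 0.66 (SE 0.13). SLBP, which binds the stem-loop of replication-dependent histone mRNA, fell by 1.04 (SE 0.32, adjusted p = 0.0306), a call lost without any of 5 TALL-1 libraries (DAC replicate 2 excepted), at adjusted p = 0.0518 to 0.155.

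Summed over the 44 genes, TALL-1 was the lowest of the 5 lines with decitabine and the highest with DMSO. The sum was 3179, 3139.5 and 2891 CPM with decitabine and 6113, 6761 and 5903 CPM with DMSO in TALL-1. In the other 4 lines the decitabine libraries held 3547 to 4625 CPM and the DMSO libraries 3039 to 5062 CPM, so every TALL-1 decitabine library lay below, and every TALL-1 DMSO library above, all other libraries of its treatment. By group mean, TALL-1 was the lowest of the 5 lines for 28 of 44 members with decitabine and the highest for 21 of 44 with DMSO. For 14 members all 3 TALL-1 decitabine libraries were below all 12 of the other lines, and for 11 members all 3 TALL-1 DMSO libraries were above all 12. The shares over all genes were not computed for these ranks and separations, so they are not read as a trait of the 44 genes. Between the DMSO groups of the 5 lines, 36 of 44 members differed, where 91.6% of all genes tested did, and 40 without the 3 mixed libraries, where 91% did.

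**Figure D4:**
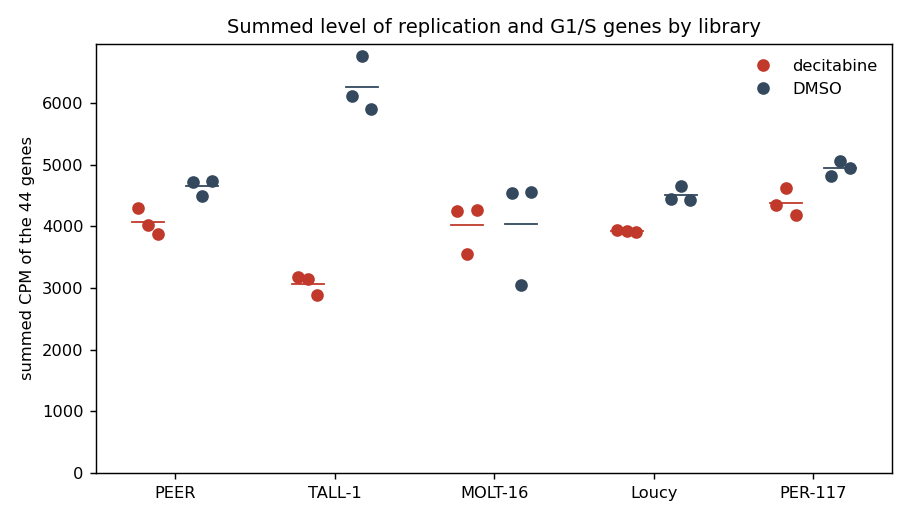
Summed CPM of the 44 genes in each library (points), with decitabine in red left of DMSO in dark blue, and the mean of 3 libraries as a line. TALL-1 holds 2891 to 3179 CPM with decitabine and 5903 to 6761 CPM with DMSO, and in MOLT-16 one DMSO library lies apart at 3039 CPM.

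The difference between lines was tested directly. The responses of the 5 lines differed for 24 of 44 members, where 13.6% of all genes did, and 34 of 44 without the 3 mixed libraries, where 27.8% did. Against the mean of the other 4 lines, TALL-1 was lower for 28 members and higher for 0, where 4.01% of all genes were lower and 3.38% higher. TALL-1 was singled out for this contrast because earlier results of these data had shown replication genes lower there. These calls are therefore not independent support for that fall. With the 3 mixed libraries left out 33 were lower and 0 higher, where 5.3% and 4.47% of all genes were. The median of that difference was -0.78 over the members and -0.05 over all genes. It was largest for CDC45 (-1.60, SE 0.20, adjusted p = 7.52e-06) and CCNE2 (-1.59, SE 0.38, adjusted p = 0.00913), where CCNE2 was at -1.24 with adjusted p = 0.0568 without TALL-1 DAC replicate 1. With the lines as replicates, which asks for a shared direction, 0 of 44 members were called lower or higher in edgeR, where 0% of 13830 genes were called lower and 0.0578% higher. All 44 log2 values of that fit were below 0, from -0.51 to -0.06, and 42 of 44 without the 3 mixed libraries, from -0.58 to 0.00. Each of these values takes in TALL-1, where all 44 fell. Below 0 were 34 of 44 in PEER, 23 in MOLT-16, 35 in Loucy and 37 in PER-117. Over all genes the shares below 0 were 51.7%, 50.8%, 46% and 42.3% in the same order. With all libraries, 10 of the 44 had an unadjusted p under 0.05 in edgeR, where 2319 of the 13830 genes did. The smallest adjusted p was 0.156 for GINS1, and DESeq2 called 1. An edgeR fit with no filter on low counts called more members, as given in the last section. The count of 0 therefore depends on the filter. The number called was 0 either way without the 3 mixed libraries, where 0.0814% of all genes were lower and 0.488% higher.

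In PEER 0 of 44 members were called, where 0.961% of all genes were lower and 3.54% higher. The log2 changes ran from -0.75 to 0.40 with a median of -0.18, against -0.02 over all genes. In edgeR 7 members had an unadjusted p under 0.05 (6 of them lower), and the share over all genes was not computed. DESeq2 called 0. None was called without the 3 mixed libraries either, where 0.896% of all genes were lower and 4.7% higher. For 14 members all decitabine libraries lay below all DMSO libraries and for 1, CCNE1, above, where 11.2% and 12.5% of all genes did so. GINS1 was among the 14, with 80.9, 81.6 and 79.4 CPM with decitabine and 95.9, 133 and 96.9 CPM with DMSO (log2 -0.43, adjusted p = 0.141).

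In Loucy 4 of 44 members fell and 0 rose, where 4.13% of all genes were lower and 10.6% higher, and the median was -0.21 against 0.03 over all genes. The 4 were GINS1, POLA1, DSCC1 and CLSPN, given above. Without the 3 mixed libraries, none of which is from Loucy, 9 were called, where 8% of all genes were lower and 14.5% higher. The 5 added were GMNN, PRIM1, POLD1, CHAF1A and ATAD2, with log2 changes from -0.70 to -0.33. For 18 members all decitabine libraries lay below all DMSO libraries, against 15.7% of all genes, and for POLE and RPA2 they lay above, against 23.4%. POLE had 101, 99.0 and 94.8 CPM with decitabine and 79.9, 76.3 and 90.3 CPM with DMSO in Loucy and was not called (log2 0.26, adjusted p = 0.241).

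In PER-117 2 of 44 members, E2F1 and CDC6, fell and 0 rose, where 3.16% of all genes were lower and 8.67% higher. The median was -0.13, against 0.05 over all genes. Without the 3 mixed libraries POLA1 and DTL were called lower too, each at -0.47, where 5.6% of all genes were lower and 11.9% higher. For 12 members all decitabine libraries lay below all DMSO libraries and for 1, GINS4, above, where 14.7% and 21.6% of all genes did so.

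MOLT-16 stood apart in its spread. Of the 44 members 1, E2F2, fell and 0 rose, where 1.01% of all genes were lower and 2.19% higher, and the median was -0.01 over both the members and all genes. DMSO replicate 2 was the lowest of the 3 DMSO libraries for 37 of 44 members and summed to 3039 CPM, against 4539 and 4552 CPM in DMSO replicates 1 and 3. Decitabine replicate 2 was likewise the lowest of its 3 libraries for 33 of 44 members. It summed to 3547 CPM, against 4249 and 4265 CPM in decitabine replicates 1 and 3. The shares over all genes were not computed for these orders. FEN1 shows the pattern, with 270.4, 187 and 279 CPM with decitabine and 182, 77.4 and 285 CPM with DMSO. Without the 3 mixed libraries, and so with only DMSO replicates 1 and 2 in MOLT-16, ORC6, FEN1 and SLBP were called higher (log2 0.67, 0.89 and 1.04) and E2F1 (-0.44) joined E2F2 as lower, where 9.78% of all genes were higher and 7.93% lower. SLBP had 89.0, 63.6 and 57.2 CPM with decitabine and 48.5, 18.2 and 72.9 CPM with DMSO. ORC6 had 64.1, 54.3 and 56.0 CPM with decitabine and 50.8, 20.5 and 82.9 CPM with DMSO. The part of the low DMSO replicate 2 in these 3 calls was not tested. For 2 members all decitabine libraries lay below all DMSO libraries and for 1, PRIM1, above, where 7.33% and 9.18% of all genes did so.

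Other genes of the pathway were read beside the members in the plot of changes by list. Over all genes, 6.12% were called lower in TALL-1, 4.13% in Loucy, 3.16% in PER-117, 1.01% in MOLT-16 and 0.961% in PEER. In the same order 6.74%, 10.6%, 8.67%, 2.19% and 3.54% were called higher. Without the 3 mixed libraries 6.49%, 8%, 5.6%, 7.93% and 0.896% were lower, and 7.46%, 14.5%, 11.9%, 9.78% and 4.7% higher. These shares apply to each list in this paragraph and below. All 7 genes of a list of the MCM helicase, which is loaded at origins, and MCM10 fell in TALL-1, at a median of -1.32 and led by MCM6 with 49.2, 68.4 and 59.3 CPM with decitabine and 188, 218 and 195 CPM with DMSO (log2 -1.76, SE 0.21). In PER-117 1 of 7 fell, MCM7 (log2 -0.41, adjusted p = 0.0449), and 0 in the other lines. With the 3 mixed libraries left out, 2 fell in PER-117 and 1 in Loucy. Of 7 genes of deoxynucleotide supply 6 fell in TALL-1, led by DUT, a dUTP hydrolase (log2 -1.42, SE 0.23), and 2 in Loucy, led by TYMS, thymidylate synthase (-0.57). RRM2B, a p53-responsive subunit of ribonucleotide reductase, rose in PER-117 (log2 1.01, SE 0.18). Of 26 other replication factors 9 fell in TALL-1, among them EXO1, an exonuclease (-1.09), and 4 in Loucy, where DBF4, the activator of the CDC7 kinase, had -0.86. Both PEER and PER-117 had 1 fall in that list, RNASEH2B, a subunit of ribonuclease H2, at -0.71 in PEER and POLD2, of polymerase delta, at -0.64 in PER-117. With the 3 mixed libraries left out, the falls in that list were 10 in TALL-1, 7 in Loucy, 3 in PER-117 and 2 in PEER, and MOLT-16 had 2 falls and 1 rise, against 0 with them.

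**Figure D5:**
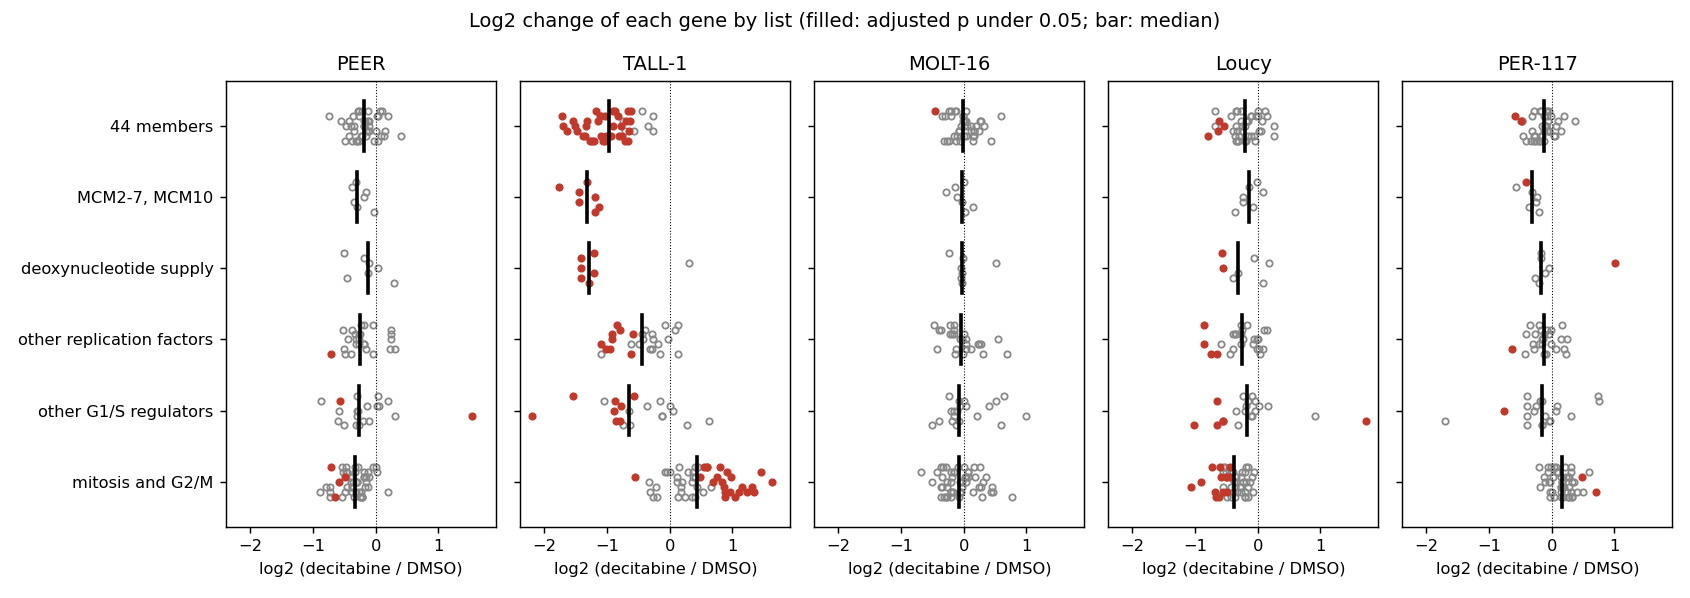
Log2 change with decitabine against DMSO of each gene (points) in 6 lists for each line, filled where the adjusted p was under 0.05, with the median as a bar. In TALL-1 the medians are -0.97 for the 44 genes, -1.32 for the MCM genes and 0.44 for genes of mitosis.

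Of 20 other G1/S regulators 8 fell in TALL-1 and 0 rose. The largest of these changes was CCND2, cyclin D2, which rested on the mixed DMSO replicate 3: it had 0.46, 1.95 and 0 CPM with decitabine and 0.858, 0.492 and 12.2 CPM with DMSO (log2 -2.19, SE 0.72, adjusted p = 0.0413), and 0.64 with adjusted p = 0.615 without the 3 mixed libraries. Loucy had 5 falls and 1 rise, CCND1, cyclin D1 (log2 1.73, SE 0.38), PEER 1 fall and 1 rise, CCND2 (1.54, SE 0.36), and PER-117 1 fall, E2F5 (-0.77). With the 3 mixed libraries left out, TALL-1 had 10 falls, Loucy 6 falls and 2 rises, PER-117 4 falls and 2 rises, and MOLT-16 3 rises, against 0 with them. Of all genes 5.6% were then lower and 11.9% higher in PER-117, and 9.78% were higher in MOLT-16. Of 6 measured inhibitors of cyclin-dependent kinases 2 rose in TALL-1, led by CDKN2D (log2 0.97, SE 0.18). CDKN1A, the p21 inhibitor and a p53 target, rose in MOLT-16 (log2 4.37, SE 0.50), PER-117 (2.23, SE 0.32) and PEER (1.98, SE 0.41). In TALL-1 CDKN1A had 1.15, 0.449 and 1.91 CPM with decitabine and 1.29, 0 and 3.40 CPM with DMSO, and was not called (log2 -0.80, SE 0.75, adjusted p = 0.538). CDKN1C rose in PEER, MOLT-16, Loucy and PER-117, with 5.44, 6.48 and 6.99 CPM with decitabine and 0.157, 1.91 and 0 CPM with DMSO in PEER. Rises among the 6 inhibitors numbered 4 in PER-117, 3 in PEER and 2 in Loucy with the 3 mixed libraries left out, against 2, 2 and 1 with them.

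Genes of mitosis and G2/M were called mostly higher in TALL-1: of 51, 22 rose and 1 fell, at a median of 0.44, where 6.74% of all genes were higher. CDC20, the activator of the anaphase-promoting complex, led them with 203, 159.5 and 199.6 CPM with decitabine and 77.0, 42.8 and 60.2 CPM with DMSO (log2 1.64, SE 0.17, adjusted p = 1.72e-07). Within the DMSO group, replicate 2 was the lowest of 3 for 48 of the 51 mitosis genes, and the highest of 3 for 22 of the 44 replication genes. Without that library, a setting chosen after seeing the data, 14 of 51 mitosis genes rose, where 5.12% of all genes did, and 32 of 44 replication genes fell, where 5.22% of all genes did. In Loucy 14 mitosis genes fell and 0 rose, where 4.13% of all genes were lower, led by CENPE, a centromere motor (log2 -1.06). That count was 24 with the 3 mixed libraries left out, where 8% of all genes were lower. In PEER 4 fell, led by BUB1B, a spindle checkpoint kinase (-0.72), which was not called without the 3 mixed libraries. In PER-117 2 rose, led by UBE2C, a conjugating enzyme of the anaphase-promoting complex (0.70), and in MOLT-16 0 were called in either direction. With the 3 mixed libraries left out, 3 rose in PER-117, and 3 fell and 3 rose in MOLT-16. Of all genes 11.9% were then higher in PER-117, and 7.93% were lower and 9.78% higher in MOLT-16.

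Among the marker sums given here for TALL-1, only that of T cells did not overlap between treatments. The 10 T-cell markers summed to 2059 to 2338 CPM with decitabine and 2871 to 3186 CPM with DMSO. Of these 4 were lower and 0 higher, where 6.12% of all genes were lower. Their log2 changes ran from -1.08 for LCK, a T-cell kinase, to 0.43, with a median of -0.48. PER-117 also had 4 of 10 lower and 0 higher, at a median of -0.52, where 3.16% of all genes were lower. The T-cell sum was lower with decitabine without overlap in other lines too. It was 1678 to 1818 against 1873 to 2122 CPM with DMSO in PEER and 1219 to 1249 against 1426 to 1494 CPM in Loucy. In PER-117 it was 514 to 542 against 713 to 768 CPM, while in MOLT-16 the sums overlapped. In TALL-1 the B-cell markers summed to 10.8 to 17.2 CPM with decitabine and 11.6 to 25.1 CPM with DMSO. The 6 myeloid markers there summed to at most 0.449 CPM with decitabine and 1.43 CPM with DMSO. The 7 epithelial and stromal markers in TALL-1 summed to 27.8 to 38.4 CPM with decitabine and 27.3 to 30.7 CPM with DMSO, with 1 of 3 tested higher, COL1A1. ELANE, CSF1R, ALAS2, KRT19 and COL1A2 were at 0 in all TALL-1 libraries. The part of these markers in the fall of the replication genes was not tested.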

How the data were processed

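RNA of 30 libraries was counted per gene by the authors with STAR 2.4.2a on GRCh38, per the submitters' processing notes; the deposited files hold raw read counts per gene, with the annotation release not given in the sources used here. The gene-strand column was used, which held 12.8 to 15.2 times the reads of the opposite strand. Reads assigned to no gene, 27.5% to 43.9% per library, were left out. Of 60554 identifiers, 56996 matched a GENCODE 29 symbol. edgeR 4.0.16 (R 4.3.3) was fitted to all libraries with 10 group means, TMM scaling, filterByExpr at a minimum count of 10 (15081 genes) and 20 residual degrees of freedom. Its quasi-likelihood test was adjusted by Benjamini-Hochberg over all genes tested and called at 0.05. Standard errors are the log2 change divided by the root of F, and are approximate. DESeq2 1.42.0 was an alternative. On simulated data for TALL-1, 160 of 200 genes changed 2-fold were called, with 6 others, over 14728 genes. The 200 were drawn from genes above 10 CPM. Every simulated gene had the same spread and no library was mixed, so these rates may not hold for the real data. The members, the gene lists and the contrast of TALL-1 with the other lines were chosen with earlier results of these data known. Per-library values were given for role-group leaders, G1/S and licensing genes, calls outside TALL-1 and uncalled members, and further examples were chosen after their values were seen. Promoter sequences came from RefSeq (GRCh38.p14). Some marker results are not reported here. For PEER DMSO replicates 2 and 3 the sample titles and the names of the deposited files swap the numbers. The titles' numbers are used throughout, including for the mixed PEER library and the same-number correlations.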

Additional observations from a re-analysis of the deposited data

Results flagged for a closer look

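For 28 of the 44 genes the TALL-1 response differed from the mean of the other 4 lines in a direct test (edgeR quasi-likelihood test, adjusted p under 0.05), all toward lower levels. This contrast was chosen with earlier results of these data known, in which replication genes were lower in TALL-1. Among the G1/S factors the log2 difference was -1.49 for E2F1, -1.01 for E2F2, -1.46 for CCNE1 and -1.59 for CCNE2. In licensing it was -0.98 for ORC1, -1.13 for CDC6 and -1.08 for CDT1. The helicase factors had -1.60 for CDC45, -1.35 for GINS2 and -0.64 for GINS3.

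Among polymerase genes the difference was -0.85 for POLA1, -0.94 for POLA2, -0.99 for POLD3 and -0.90 for POLE. The clamp and its loaders had -1.36 for PCNA, -0.75 for RFC2, -0.97 for RFC5 and -0.70 for DSCC1. RPA1 had -0.68, FEN1 had -1.20 and UNG had -1.16.

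At the fork and checkpoint the difference was -0.56 for TIMELESS, -0.74 for CHEK1 and -1.35 for DTL. The chromatin genes had -0.69 for CHAF1A, -0.91 for CHAF1B, -0.79 for NASP and -0.60 for ATAD2. TIMELESS (adjusted p = 0.0475) and CHEK1 (adjusted p = 0.0498) lay just under the threshold and were lost without many single libraries. GINS3 was lost without any of 6 single libraries. CCNE2, ORC1, CDT1 and POLD3 were each lost without at least 1 TALL-1 library.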

How the results depend on the processing

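In TALL-1 the number of genes called lower was 37 and ran from 31 to 39 with single libraries left out, and 0 were called higher under any setting run. In PEER 1 was lower with no filter on low counts, against 0. In MOLT-16, against 1 lower, the count was 0 with library sizes alone, with no filter and with only the 6 libraries of the line, and 2 without the 3 mixed libraries, where 3 were higher; with single libraries left out it ran from 0 to 1 lower and 0 to 3 higher. In Loucy, against 4, it was 2 with library sizes alone, 9 without the 3 mixed libraries and 12 with only its 6 libraries (where 1344 of 14365 genes were lower, against 623 of 15081), and 1 (without Loucy DAC replicate 1) to 7 (without MOLT-16 DMSO replicate 2) with single libraries left out. In PER-117, against 2, it was 5 with DESeq2, 1 with no filter, 4 with the replicate block, 4 without the 3 mixed libraries and 7 with only its 6 libraries (where 1390 of 12693 genes were lower, against 477 of 15081), and 0 (without PER-117 DAC replicate 1) to 5 (without MOLT-16 DMSO replicate 2) with single libraries left out. With the lines as replicates, DESeq2 called 1 and the fit with no filter 13, against 0. The directions and the shares of all genes called in these fits are not given here, so the 13 are not read as a result about the members. The cause of these shifts was not tested. Same-numbered libraries correlated at -0.19 to 0.22 and in no line were all 3 over 0.1, so the numbers were not taken as pairs; with the replicate block TALL-1 had 39 lower, and in PER-117 every decitabine library correlated best with its own number, a hint from the data. Library sizes alone moved the median of all genes in Loucy to 0.14 (0.03 with TMM), with 274 genes lower and 2049 higher (623 and 1595 with TMM). In TALL-1 that scaling gave 558 lower and 1398 higher (923 and 1017 with TMM), and in PEER 48 and 637 (145 and 534 with TMM). Genes of mitosis called higher in TALL-1 were 22, 27 without the 3 mixed libraries and 14 without DMSO replicate 2, both settings chosen after seeing the data.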
